A study of Mus musculus with 24 samples.

Results

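The cytosolic sulfotransferases are the enzymes with which hepatocytes attach a sulfonate group to small molecules. The 8 genes described here, Sult1a1, Sult1b1, Sult1d1, Sult1e1, Sult2a1, Sult2a2, Sult3a1 and Sult5a1, were found by their exact names among the 24443 gene names of each deposited table, and all 8 were present in all 4 tables. They cover 4 branches of the family. A further 13 sulfotransferase genes are used only to show the setting of these 8.

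Cytosolic sulfotransferases take the sulfonate from the donor PAPS, which the PAPS synthases make from ATP and inorganic sulfate, and pass it to a hydroxyl or amino group of a steroid, bile acid, catecholamine, thyroid hormone or drug. The product is more soluble in water and is usually inactive at the receptor that its parent compound binds. In mouse liver several Sult2a genes and Sult3a1 are known for much higher levels in females than in males, and nuclear receptors such as CAR, PXR and FXR are known to act on genes of the family.

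RNA was measured in livers of male C57BL/6 mice, in 5 groups of 4 libraries. Fed WT mice carried the floxed Bcl6 allele (Bcl6 fl/fl) without Cre and ate ad libitum, and fasted WT mice had the same genotype and were fasted overnight. Fed Bcl6LKO mice carried the same floxed allele with Alb-Cre, in which the albumin promoter drives Cre in hepatocytes, so that other cells of the liver keep Bcl6. Fasted PparaKO mice lacked Ppara in the whole body (Ppara-/-), with no floxed Bcl6 in their label, and fasted DKO mice combined Ppara-/- with Bcl6 fl/fl and Alb-cre. The 4 fasted Bcl6LKO samples named in the labels were not analysed here. The labels give no ages and do not say whether each library is a mouse of its own, so the spread behind each p-value is that between libraries and may be technical.

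Values were deposited as regularised log2 levels in 4 tables of 8 libraries, one for each pair of groups, and each table had been scaled by itself. Levels are therefore compared only within a table. Fed WT libraries are the reference for both fasting and Bcl6LKO, and fasted WT libraries are the reference for both PparaKO and DKO as well as the second group for fasting, so these comparisons share samples. DKO was not compared with PparaKO. Groups were tested with limma over all genes of a table that were not listed at 0 throughout and had a mean of at least 4, and a call is a Benjamini-Hochberg adjusted p under 0.05 over those genes. Depth is unknown because no counts were used. The sum of the back-transformed levels lay between 12.6 and 15.1 mega units per library.

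The labels were checked against their targeted genes and the tissue. Ppara fell by 1.04 on the log2 scale in PparaKO mice (adjusted p = 3.82e-06) and by 1.77 in DKO mice (adjusted p = 4.53e-05). Bcl6 fell by 1.53 in Bcl6LKO mice (adjusted p = 0.0207), with libraries that overlapped and a call lost without any one of fed WT 3 or 4 or Bcl6LKO 1 or 4 (adjusted p from 0.0506 to 0.0578), and differed by -0.39 in DKO mice (adjusted p = 0.540). Reads from exons outside the deleted parts of Bcl6 and Ppara still enter these levels. Alb, the albumin gene, was 1.84 higher in Bcl6LKO than in fed WT livers (adjusted p = 0.000147) and 1.05 higher in DKO than in fasted WT livers (adjusted p = 0.00635), and both calls were lost with quantile normalization. That setting gives genes of equal rank the same value in every library, and it left a difference of 2.17e-15 in DKO livers. For a gene as abundant as Alb, a call lost with it cannot decide whether the level moved. In PparaKO livers Alb differed by -0.68 (SE 0.22, adjusted p = 0.0425), a call lost with quantile normalization (adjusted p = 0.159) and without any one of 6 libraries (adjusted p from 0.0504 to 0.113). Since several of the genes described are known for higher levels in females, the label of sex was checked too: over all libraries and tables Xist lay between 1.64 and 2.52, while the Y-linked Ddx3y lay between 9.70 and 10.43 and Kdm5d between 8.23 and 8.59.

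The genes differ in how far a read can be assigned to them. Sult2a1 (chr7:13796246-13837409, minus strand) and Sult2a2 (chr7:13733505-13779636, plus strand) are neighbours on chromosome 7 in the mm10 build with GENCODE vM21 annotation. Their coding sequences differed at 12 of the 582 coding bases annotated for Sult2a2, an identity of 97.9%. Reads in this study were 75 bases long and only uniquely mapped reads were counted. For each gene the protein-coding transcript with the longest coding sequence was used. Of its 75-base stretches, 47.2% for Sult2a2 (315 of 667) and 19.5% for Sult2a1 (184 of 946) also occurred in another gene's transcripts. The genes they shared with were each other, Sult2a4, Sult2a5 and Sult2a6. For this pair the split of reads between copies is uncertain. The aligned window of 75 coding bases in which the pair differs most, from GENCODE vM21, shows how little separates a read of one from a read of the other. It covers coding bases 185 to 259, counted from the first coding base, and capitals mark the 4 differing bases.
Sult2a1: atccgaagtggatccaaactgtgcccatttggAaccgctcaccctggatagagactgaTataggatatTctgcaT
Sult2a2: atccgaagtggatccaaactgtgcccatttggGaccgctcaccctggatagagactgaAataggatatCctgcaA
Of 434 such windows, 120 (27.6%) were identical in the pair.

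Sult3a1 (chr10:33857721-33879532) and its neighbour Sult3a2 (chr10:33766424-33786704) were further apart, with 90.9% identity over 879 coding bases. Only 1.76% of the 75-base stretches of Sult3a1 (19 of 1080) were shared, all with Sult3a2. Their most different window, coding bases 17 to 91, holds 17 differing bases, again in capitals, and is shown because it sets this pair apart from Sult2a1 and Sult2a2.
Sult3a1: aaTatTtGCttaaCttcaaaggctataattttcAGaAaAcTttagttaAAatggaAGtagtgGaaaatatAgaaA
Sult3a2: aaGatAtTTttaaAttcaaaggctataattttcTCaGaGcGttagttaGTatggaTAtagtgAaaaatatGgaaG
Sult1b1 (chr5:87513339-87538195), Sult1d1 (chr5:87554645-87569027) and Sult1e1 (chr5:87575969-87591594) lie side by side on chromosome 5 and shared no stretch with any other gene. Sult1a1 (chr7:126672865-126676432) shared 4.36% with the gene model Gm6939, and Sult5a1 (chr8:123140192-123158315) 0.0804%. Whether reads were counted by strand is not given in the sources used here, and Sult1a1, Sult3a1 and Sult5a1 overlap a gene on the opposite strand (Sgf29, Gm47935 and Gm20388). Stretches were compared between transcripts only and not with introns.

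**Figure D1:**
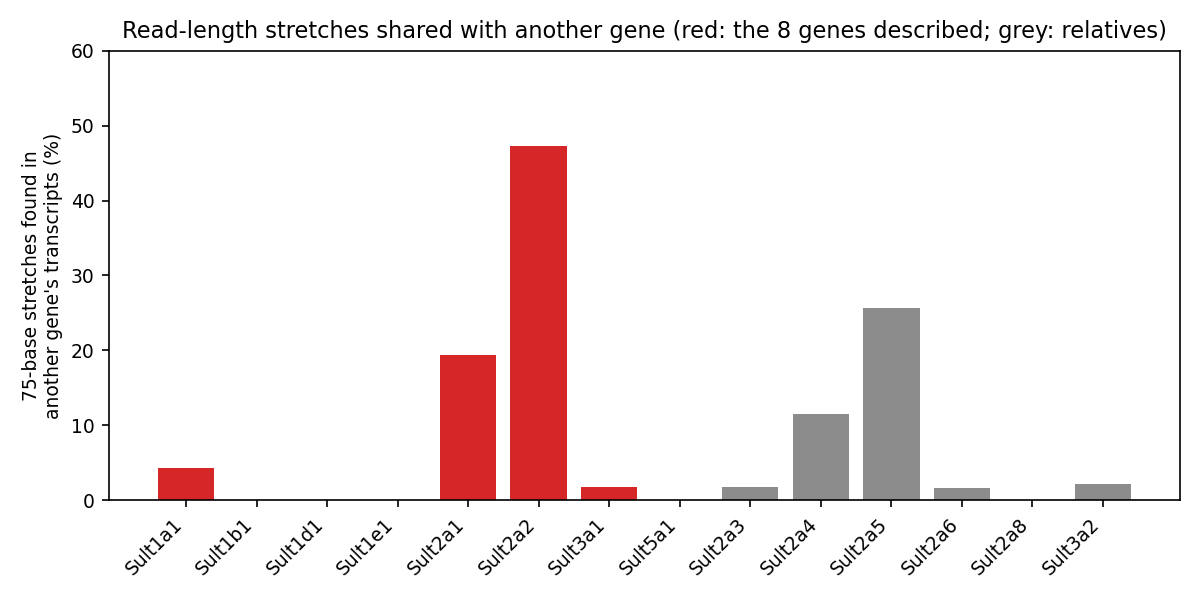
Share of the 75-base stretches of the transcript used for each gene (y axis, percent) that also occur in a transcript of another gene, for the 8 genes described (red) and 6 relatives (grey). Sult2a2, at 47.2%, and Sult2a5, at 25.6%, stand above the rest, while Sult1b1, Sult1d1 and Sult1e1 are at 0.

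Of the 8 genes, RefSeq promoters (GRCm38.p6, from 250 bases before to 50 after the start) were matched for 6, all but Sult2a1 and Sult2a2. They were searched on both strands for TTCNNNGAA, the core of sites bound by STAT factors and close to the BCL6 motif, and for AGGTCA, the unit that nuclear receptors bind. TTCNNNGAA was found for 1 of the 6, Sult3a1, and in 8.30% of all 32851 promoters in the table. AGGTCA was found for 2, Sult1b1 and Sult1e1, and in 16.3% of all promoters. No promoter held both, and a match is a description of letters, not of a bound site. The promoter of the neighbour Sult3a2, which also stood higher in Bcl6LKO and DKO livers, held 0 matches of TTCNNNGAA. The Sult3a1 promoter (chr10:33857472-33857771, plus strand) is printed because Sult3a1 is one of the genes with the largest differences below, with the match, 109 to 101 bases before the start, in capitals.
Sult3a1 promoter: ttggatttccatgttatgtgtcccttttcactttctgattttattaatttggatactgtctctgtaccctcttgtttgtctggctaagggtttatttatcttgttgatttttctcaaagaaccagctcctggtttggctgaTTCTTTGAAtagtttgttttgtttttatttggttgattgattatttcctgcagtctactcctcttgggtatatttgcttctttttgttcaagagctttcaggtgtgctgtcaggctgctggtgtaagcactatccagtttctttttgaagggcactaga

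In fed livers lacking Bcl6 in hepatocytes, transcripts of Sult2a1, Sult2a2 and Sult3a1 stood far above those of fed WT livers. The phenol sulfotransferase Sult1a1 was 2.41-fold higher on the deposited scale. Of the 8 genes, 7 were tested, 5 were called higher and 1 lower. Over all 12115 genes tested in this comparison, 18.3% were called higher and 19.8% lower (2212 and 2394 genes, but 976 and 6892 when libraries were set to equal totals, which shifted the median of all genes by -0.22). With a fold over 2 as well, 4 of the 8 were called, all higher, against 4.23% of all genes in either direction. The median difference of the 7 tested genes was 1.27 on the log2 scale, beside -0.01 for all genes tested. Sult2a1, Sult2a2 and Sult3a1 passed the minimum only through the Bcl6LKO libraries, so that they had to differ, and they weigh on these counts. In whole liver, fewer cells of a type and less RNA per cell cannot be told apart.

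Sult2a1 encodes the enzyme that sulfonates hydroxysteroids such as DHEA and bile acids. Its level was 5.52, 5.79, 5.65 and 5.60 in the fed WT libraries and 12.39, 12.11, 12.44 and 12.20 in the Bcl6LKO libraries. No library of one group came near the other, and the Bcl6LKO libraries lay close together. The means were 5.64 ± 0.12 and 12.3 ± 0.15 (SD, n = 4 each), a difference of 6.64 (SE 0.08, adjusted p = 1.36e-12).

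Sult2a2, the neighbouring copy, had levels of 4.72, 4.91, 4.82 and 4.76 in fed WT and of 9.18, 8.32, 8.39 and 8.79 in Bcl6LKO libraries. The groups were again far apart, with more spread among the Bcl6LKO libraries (SD 0.40, n = 4) than for Sult2a1. The difference was 3.86 (SE 0.16, adjusted p = 2.40e-08). Within each Bcl6LKO library, Sult2a1 exceeded Sult2a2 by 3.22, 3.80, 4.05 and 3.41, so the order of the pair was the same in all 4 libraries but the gap was not constant. Because of the shared stretches described above, neither the gap nor the level of either gene alone is certain.

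Sult3a1 encodes a sulfotransferase known in mice to act on amines. It stood at 4.98, 5.24, 5.14 and 5.04 in fed WT libraries and at 9.09, 10.11, 10.72 and 9.57 in Bcl6LKO libraries. This was the widest spread of the 8 genes within a group in this table (SD 0.70, n = 4), with replicate 3 highest and replicate 1 lowest, and still every Bcl6LKO library was above every WT library. The difference was 4.77 (SE 0.27, adjusted p = 3.11e-07). Its neighbour Sult3a2, which is not among the 8 genes, had levels of 7.63, 8.72, 9.32 and 8.25 in the Bcl6LKO libraries, in the same order of libraries, and stood 3.73 above fed WT on the deposited scale. It too passed the minimum only through the Bcl6LKO libraries, and the same fed WT libraries averaged 4.75 in this table and were listed at 0 in the fasting table. Sult3a1 exceeded it by 1.46, 1.39, 1.40 and 1.32 within each library.

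**Figure D2:**
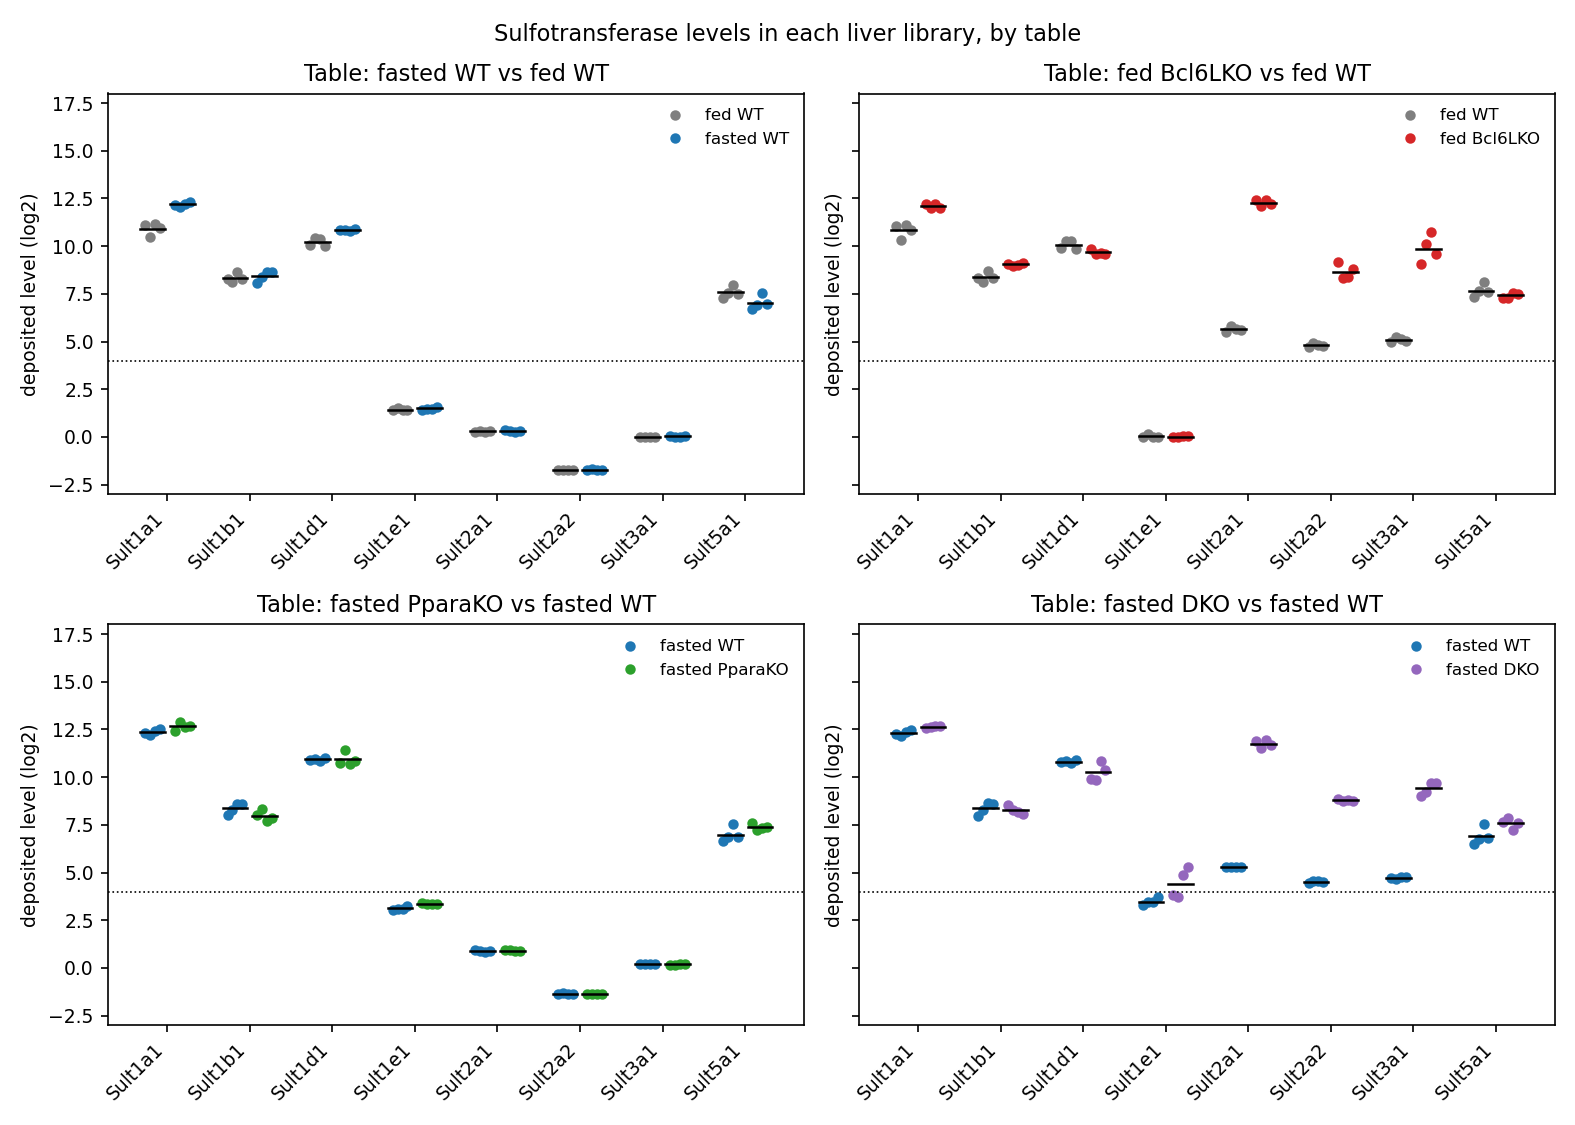
Deposited log2 level (y axis) of the 8 genes in each library, with 1 panel per table, points for libraries, short lines for group means of 4, and a dotted line at the minimum mean of 4 needed for testing. Sult2a1, Sult2a2 and Sult3a1 stand above 8 in all Bcl6LKO and DKO libraries, and below 1 in both groups of the fasting and PparaKO tables.

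How far these low WT levels are from 0 depended on the table. The same fed WT libraries averaged 0.29 for Sult2a1 beside fasted WT libraries and 5.64 beside Bcl6LKO libraries. For Sult2a2 the averages were -1.73 and 4.80, and for Sult3a1 0.01 and 5.10. A regularised logarithm draws the values of a gene towards its mean over the libraries of its own table, and the other group of the fasting table was low too. The differences given for these 3 genes are therefore distances on the deposited scale and not ratios of reads. The spread among low libraries is drawn in too, so their SE and adjusted p do not measure the full variation between libraries. In Bcl6LKO and DKO livers alike they passed the minimum only through the knockout libraries. Their adjusted p-values there are given as description only. For Sult1e1 the averages moved by 1.40 in fed WT and by 1.97 in fasted WT libraries, so its differences below carry the same limit. Unlike these genes, Sult1a1, Sult1b1, Sult1d1 and Sult5a1 had averages in the same WT libraries that moved by between 0.05 and 0.19 from table to table.

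Among the phenol and catecholamine branch, Sult1a1, which sulfonates simple phenols, had levels of 11.03, 10.34, 11.08 and 10.87 in fed WT and 12.20, 12.01, 12.20 and 12.01 in Bcl6LKO libraries. The groups did not overlap, although fed WT replicate 2 was lower than the other fed WT libraries. The difference was 1.27 (SE 0.14, adjusted p = 4.50e-05). Sult1b1, which acts on thyroid hormones and small phenols, had levels of 8.35, 8.12, 8.71 and 8.35 in fed WT and 9.08, 8.95, 9.04 and 9.10 in Bcl6LKO libraries. All 4 Bcl6LKO libraries were above the highest fed WT library, by a smaller step than for Sult1a1. The difference was 0.66 (SE 0.10, adjusted p = 0.000627), 1.58-fold.

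Sult1d1, which in mice sulfonates dopamine and other catecholamines, was the 1 gene of the 8 called lower. Its levels were 9.89, 10.29, 10.26 and 9.86 in fed WT and 9.87, 9.58, 9.62 and 9.60 in Bcl6LKO libraries. Replicate 1 of Bcl6LKO lay among the fed WT libraries and stood apart from the other 3, which were below all of them. The difference was -0.41 (SE 0.11, adjusted p = 0.0136). Sult5a1, of a branch with little known about its substrates, had levels of 7.32 to 8.13 in fed WT and 7.29 to 7.57 in Bcl6LKO libraries, and its difference of -0.26 (SE 0.15, adjusted p = 0.190) did not pass. It did without fed WT replicate 1 (-0.38, adjusted p = 0.0469) and with equal totals (-0.47, adjusted p = 0.0135). Sult1e1, the estrogen sulfotransferase, lay between -0.02 and 0.13 in all 8 libraries and was not tested.

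In WT livers, Sult1a1 and Sult1d1 were higher after an overnight fast, and Sult2a1, Sult2a2 and Sult3a1 stayed at the lower end of the scale. Of the 8 genes, 4 were tested, 2 were called higher and none lower by limma (2 higher and 1 lower at an unadjusted p under 0.05). Over all 11910 genes tested, 11.9% were called higher and 11.0% lower (1416 and 1309 genes, but 810 and 3293 with equal totals). Sult1a1 also had a fold over 2, as did 1.16% of all genes tested in either direction. The median difference of the 4 genes was 0.36, beside -0.00 over all genes.

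Sult1a1 had levels of 11.10, 10.49, 11.14 and 10.95 in fed and 12.14, 12.03, 12.23 and 12.33 in fasted WT libraries. Every fasted library was above every fed library. The means were 10.9 ± 0.30 and 12.2 ± 0.13 (SD, n = 4 each), a difference of 1.26 (SE 0.13, adjusted p = 0.000159), 2.40-fold. Sult1d1 had levels of 10.04, 10.40, 10.37 and 10.01 in fed and 10.83, 10.85, 10.78 and 10.89 in fasted libraries. Again the groups did not overlap, and the fasted libraries were closer together (SD 0.05) than the fed ones (SD 0.21, n = 4 each). The difference was 0.63 (SE 0.09, adjusted p = 0.000891), 1.55-fold.

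Sult1b1 lay between 8.11 and 8.62 in fed and between 8.06 and 8.65 in fasted libraries, with a difference of 0.09 (SE 0.14, adjusted p = 0.675). For Sult5a1, levels of 7.27, 7.56, 7.97 and 7.48 in fed and 6.72, 6.92, 7.57 and 6.95 in fasted libraries gave a difference of -0.53 (SE 0.19, adjusted p = 0.0648). Its replicate 3 was the highest library of each group. Sult5a1 passed as lower in a fit with a replicate block (adjusted p = 0.000705), although the labels name no pairing of libraries. It also passed without fed WT replicate 1 (adjusted p = 0.0458), without fasted WT replicate 3 (adjusted p = 0.0100) and with equal totals (-0.62, adjusted p = 0.0265). Sult1e1, Sult2a1, Sult2a2 and Sult3a1 had levels of 1.59 or less in all 8 libraries and were not tested. Without the minimum, their differences lay between 0.01 and 0.06 and none passed (adjusted p from 0.189 to 0.457). Whether fasting moves Sult2a1, Sult2a2 or Sult3a1 at all was not detectable at these levels.

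**Figure D3:**
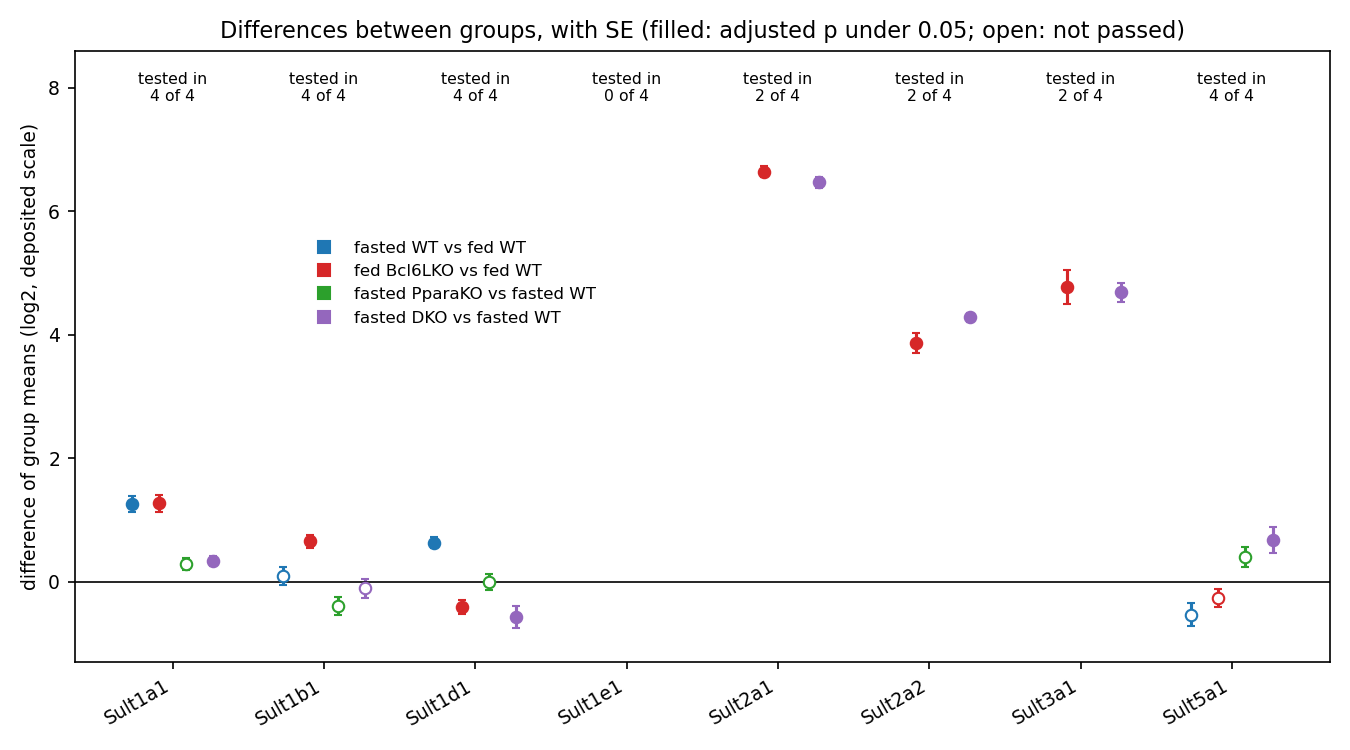
Difference of group means on the deposited log2 scale (y axis, point) with its standard error (bar) for each gene and comparison, n = 4 libraries per group, filled where the adjusted p was under 0.05. Sult2a1 is highest at 6.64 and 6.47 in the comparisons of Bcl6LKO and DKO mice, and Sult1e1 has no point because it was not tested.

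Loss of Ppara in fasted mice gave no call among the 4 genes tested. By limma 0 were higher and 0 lower, with 2 higher and 1 lower at an unadjusted p under 0.05. Over all 11932 genes tested, 11.7% were called higher and 13.3% lower, and 1.58% in either direction with a fold over 2. The median difference was 0.14, beside 0.01 over all genes.

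Sult1a1 stood at 12.33, 12.23, 12.42 and 12.51 in fasted WT libraries, and PparaKO libraries gave 12.44, 12.90, 12.60 and 12.70. Only replicate 1 of PparaKO lay within the WT range, and the difference was 0.29 (SE 0.10, adjusted p = 0.0520). It passed without that library (adjusted p = 0.0173), without fasted WT replicate 4 (adjusted p = 0.0457) and with quantile normalization (0.42, adjusted p = 0.00593). For Sult1b1, levels of 8.0, 8.30, 8.59 and 8.58 in WT and 8.0, 8.33, 7.72 and 7.87 in PparaKO libraries gave a difference of -0.39 (SE 0.15, adjusted p = 0.0790). Its groups overlapped, and it passed as lower without fasted WT replicate 1 (adjusted p = 0.0223) or PparaKO replicate 2 (adjusted p = 0.0251). Sult1d1 differed by 0.00 (SE 0.13, adjusted p = 0.995), and PparaKO replicate 2, at 11.42, stood above the other 7 libraries, which lay between 10.71 and 10.98. Sult5a1 ranged from 6.65 to 7.53 in WT and from 7.21 to 7.62 in PparaKO libraries, with a difference of 0.39 (SE 0.16, adjusted p = 0.0975) that passed without fasted WT replicate 3 (0.58, adjusted p = 0.00338).

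Sult1e1 had a mean below the minimum in this table, with 3.03, 3.11, 3.10 and 3.24 for fasted WT libraries, beside 3.38, 3.33, 3.33 and 3.37 for PparaKO libraries. The groups did not overlap, by a small margin. Without the minimum, the difference was 0.23 (SE 0.05, adjusted p = 0.0126). Sult2a1, Sult2a2 and Sult3a1 had levels between -1.38 and 0.96 in both groups, with differences from -0.02 to -0.01 that did not pass (adjusted p from 0.436 to 0.870).

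In fasted mice lacking both Ppara and hepatocyte Bcl6, Sult2a1, Sult2a2 and Sult3a1 were again far above WT. Of the 8 genes, 7 were tested, 5 were called higher and 1 lower. Over all 12004 genes tested, 19.3% were called higher and 20.8% lower (2314 and 2494 genes, but 1590 and 3416 with equal totals). With a fold over 2, 3 of the 8 were called, against 6.11% of all genes in either direction. The median difference of the 7 genes was 0.68, beside 0.00 over all genes. Sult2a1, Sult2a2 and Sult3a1 again passed the minimum only through the DKO libraries, so that they had to differ. These are the 3 genes with a fold over 2.

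Sult2a1 had levels of 5.31, 5.27, 5.27 and 5.30 in fasted WT and 11.87, 11.53, 11.96 and 11.67 in DKO libraries. The groups were separate in every library. The difference was 6.47 (SE 0.09, adjusted p = 1.28e-11), beside 6.64 in fed Bcl6LKO mice. Sult2a2 had levels of 4.46, 4.57, 4.54 and 4.51 in WT and 8.87, 8.75, 8.83 and 8.75 in DKO libraries. Here the DKO libraries were close together (SD 0.06, n = 4), unlike those of Bcl6LKO mice. The difference was 4.28 (SE 0.07, adjusted p = 2.58e-11). Within each DKO library Sult2a1 exceeded Sult2a2 by 3.0, 2.78, 3.13 and 2.92.

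Sult3a1 had levels of 4.70, 4.68, 4.75 and 4.75 in fasted WT and 9.0, 9.23, 9.72 and 9.67 in DKO libraries. Again every DKO library was above every WT library, and the difference was 4.69 (SE 0.15, adjusted p = 4.01e-09), beside 4.77 in fed Bcl6LKO mice. Sult3a2 had levels of 7.22, 7.57, 8.27 and 8.44 in the DKO libraries, through which alone it passed the minimum, and stood 3.63 above fasted WT on the deposited scale. Sult3a1 exceeded Sult3a2 in each DKO library, by 1.78, 1.66, 1.45 and 1.23. The DKO and Bcl6LKO values were scaled separately and have different WT references, so the sizes of these differences cannot be compared. The difference between the DKO and Bcl6LKO comparisons was not tested for any gene.

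The genes of the Sult1 branch moved less. Sult1a1 had levels of 12.26, 12.15, 12.35 and 12.46 in fasted WT and 12.59, 12.62, 12.66 and 12.67 in DKO libraries. The groups did not overlap, and the difference was 0.33 (SE 0.08, adjusted p = 0.00752), 1.26-fold, beside 1.27 on the log2 scale in fed Bcl6LKO mice. The references differ, as fed WT served for Bcl6LKO, and Sult1a1 was 1.26 higher in fasted than in fed WT livers. Sult1d1 had levels of 10.82, 10.83, 10.75 and 10.88 in WT and 9.93, 9.86, 10.84 and 10.35 in DKO libraries. DKO replicate 3 lay within the WT range while the other 3 were below it. The difference was -0.57 (SE 0.18, adjusted p = 0.0279), and the call was lost without any one of 5 libraries (fasted WT 1, 2 or 4, DKO 1 or 2, adjusted p from 0.0566 to 0.0740) and with quantile normalization (-0.44, adjusted p = 0.0758). Sult1b1 ranged from 7.96 to 8.63 in WT and from 8.08 to 8.55 in DKO libraries, with a difference of -0.11 (SE 0.15, adjusted p = 0.613).

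Sult5a1 had levels of 6.49, 6.77, 7.56 and 6.79 in fasted WT and 7.62, 7.87, 7.24 and 7.59 in DKO libraries. Fasted WT replicate 3 was above DKO replicate 3, and the groups were otherwise separate. The difference was 0.68 (SE 0.21, adjusted p = 0.0253), 1.60-fold, and this call was also lost when any one of 5 libraries was left out (the same 5, adjusted p from 0.0504 to 0.0709). Sult1e1, with a mean below the minimum, had levels of 3.28, 3.45, 3.43 and 3.70 in WT and 3.81, 3.72, 4.86 and 5.27 in DKO libraries. The groups did not overlap, and DKO replicates 3 and 4 were set apart from replicates 1 and 2. Without the minimum, the difference was 0.95 (SE 0.30, adjusted p = 0.0398).

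To order the genes by abundance, back-transformed levels were divided by transcript length and given as a share of the sum over 21 sulfotransferase genes, within each library. This is a description on the deposited scale, and the WT shares of the genes that were low are drawn upward in the Bcl6LKO and DKO tables. Whole transcript lengths were used, although only uniquely mapped reads were counted. Stretches shared with no other gene made up 52.8% of those of Sult2a2 and 80.5% of those of Sult2a1. The shares of this pair may thus be too low, and their ranks are uncertain. In the fed WT libraries of the fasting table the leading gene was Sult2a8, a bile acid sulfotransferase that is not among the 8, with a share of 72.0% ± 2.6 (SD, n = 4). Sult1a1 followed with 19.0% ± 3.2 and Sult1d1 with 6.15% ± 0.82, and Sult1b1 and Sult5a1 came next with 1.55% and 0.63%. The ranges of these 5 genes did not overlap. In fasted WT libraries Sult1a1 held 37.8% ± 2.8 and Sult2a8 52.1% ± 3.0.

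In Bcl6LKO libraries Sult2a1 led with 32.9% ± 1.2, ahead of Sult2a8 with 26.4% ± 0.91 and Sult1a1 with 23.0% ± 0.95 (SD, n = 4 each). Sult3a1 held 5.88% ± 2.5 and Sult2a2, whose share may be too low, 3.81% ± 1.1, with ranges that overlapped. In the same table Sult2a1 held 0.616% in fed WT libraries. The summed level per kb was 8010 ± 784 in fed WT and 14920 ± 1464 in Bcl6LKO libraries, in back-transformed units per kb. In PparaKO libraries Sult1a1 led with 57.6% ± 4.0, ahead of Sult2a8 with 30.6% ± 3.8. In DKO libraries the order was Sult1a1 with 43.2% ± 2.6, Sult2a1 with 29.8% ± 2.3 and Sult2a8 with 7.24% ± 1.7, and Sult2a2, Sult3a1 and Sult1d1 followed with 5.27%, 5.22% and 4.50%. The ranges of these last 4 genes, Sult2a8 included, overlapped.

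**Figure D4:**
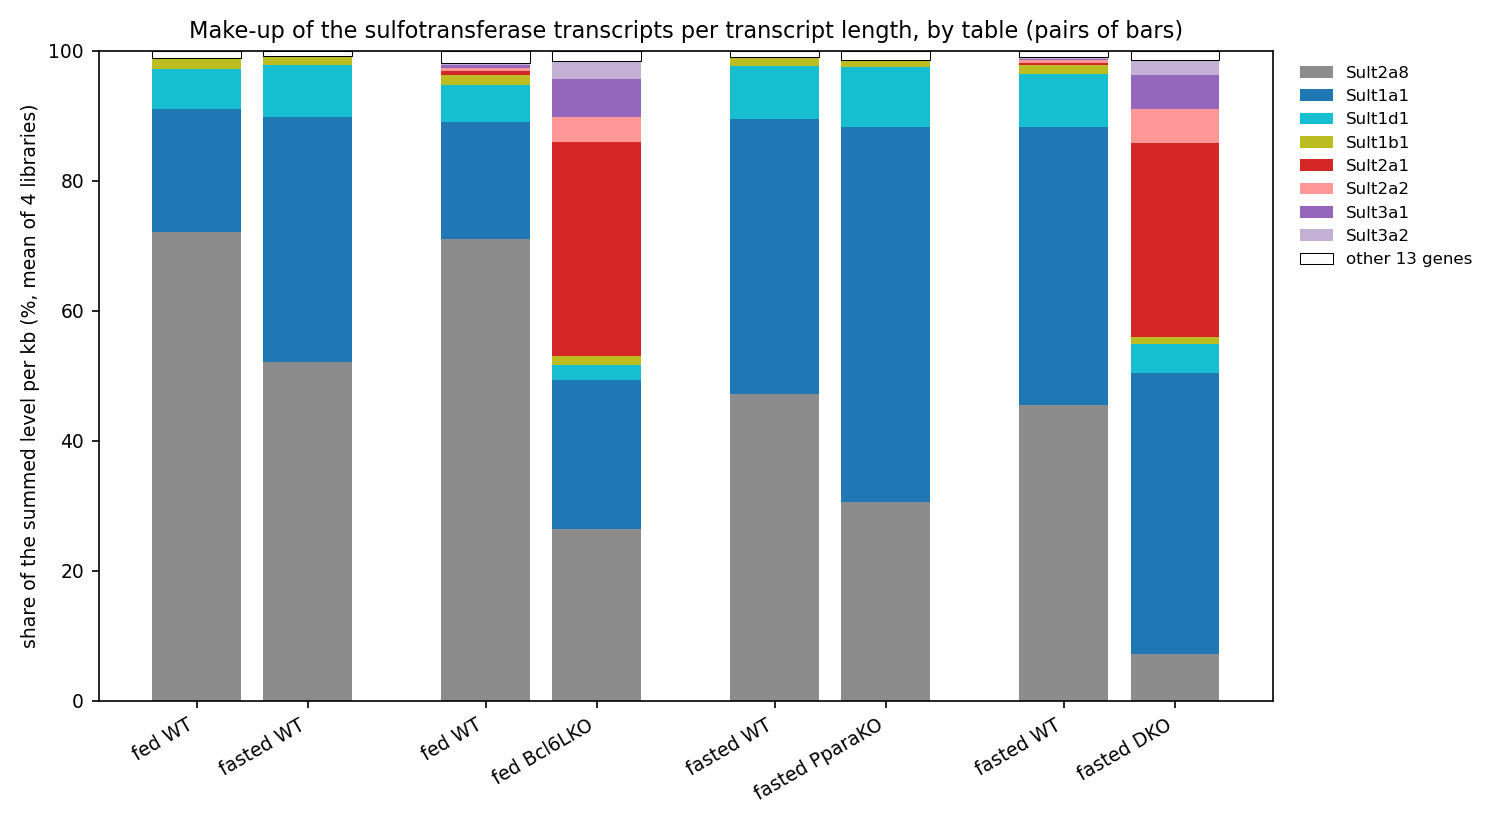
Share of each gene in the summed back-transformed level per kb of transcript over 21 sulfotransferase genes (y axis, percent, mean of 4 libraries), in pairs of bars for the 4 tables. Sult2a8 (grey) takes 72.0% in the fed WT libraries of the fasting table, and 45.4% in fasted WT and 7.24% in DKO libraries of the DKO table, and Sult2a1 (red) takes 32.9% in Bcl6LKO and 29.8% in DKO libraries.

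Sult2a8 was called lower in Bcl6LKO and DKO livers, in which Sult2a1 was called higher, and also in PparaKO livers, in which Sult2a1 was not tested. In Bcl6LKO livers its difference was -0.53 (SE 0.09, adjusted p = 0.000917), in PparaKO livers -0.79 (SE 0.13, adjusted p = 0.00115) and in DKO livers -2.36 (SE 0.15, adjusted p = 1.24e-06). Its DKO levels of 11.09, 10.87, 10.85 and 10.23 were all below its fasted WT levels of 13.02 to 13.23. None of its 75-base stretches was shared with another gene. The Bcl6LKO value was added to those named by size after its value was seen.

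Of the 13 other sulfotransferase genes, 5 were tested in Bcl6LKO mice, with 4 higher and 1 lower, and 3 in DKO mice, with 2 higher and 1 lower. Sult3a2 in both tables and Sult4a1 in that of Bcl6LKO mice passed the minimum only through the knockout libraries, so they had to differ and are no support for a direction in these counts. Sult1c2 was higher by 0.86 (SE 0.10, adjusted p = 6.01e-05) in Bcl6LKO and by 1.28 (SE 0.12, adjusted p = 1.45e-05) in DKO livers. Sult4a1, best known from brain, stood 2.12 above fed WT on the deposited scale in Bcl6LKO livers, where the same fed WT libraries averaged 4.18 beside -2.09 in the fasting table, and it stayed below 1 in the DKO table. Sult2a7 was higher by 0.65 in Bcl6LKO (adjusted p = 0.0275) and by 0.59 in PparaKO livers (adjusted p = 0.0183). The first call was lost with equal totals (adjusted p = 0.0818) and quantile normalization (adjusted p = 0.0593), and each was lost without a single library (fed WT 3 or 4 or Bcl6LKO 1, 2 or 3 in the first, adjusted p from 0.0508 to 0.0743, and fasted WT 1 in the second, adjusted p = 0.0501). The other copies that share stretches with Sult2a1 or Sult2a2 were not tested. In the Bcl6LKO table Sult2a4 and Sult2a5 had Bcl6LKO means of 2.43 and 3.64, and Sult2a6, which shares with Sult2a1, had levels of 3.10, 4.57, 4.95 and 3.06, so that it was higher in Bcl6LKO replicates 2 and 3 than in the other 2. Fasting gave 2 tested genes, none higher and 1 lower (Sult1c2, -0.22, adjusted p = 0.0379, lost without any one of 5 libraries, fed WT 1 or 3 or fasted WT 1, 2 or 3, with adjusted p from 0.0630 to 0.0922, and also with median centring, quantile normalization or no minimum, with adjusted p from 0.0511 to 0.0577), and PparaKO gave 3 tested, 1 higher and 1 lower.

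The genes that supply and clear the sulfonate donor were counted next. Beside this list and those below stand the shares of all tested genes called in either direction. These were 22.9% with fasting, 38.0% in Bcl6LKO, 25.0% in PparaKO and 40.1% in DKO livers. Of 6 genes for PAPS synthesis, transport and breakdown, all tested, 3 were higher and 2 lower in Bcl6LKO (median 0.23), and 1 was higher and 1 lower in DKO livers (median 0.12). Papss2, the main PAPS synthase gene of liver, was higher by 0.92 (SE 0.08, adjusted p = 9.43e-06) in Bcl6LKO and by 0.59 (SE 0.09, adjusted p = 0.000350) in DKO livers. Papss1, the other synthase gene, differed by -0.32 (SE 0.07, adjusted p = 0.00475) in Bcl6LKO livers and by -0.57 (SE 0.06, adjusted p = 0.000140) with fasting. Bpnt1, whose product breaks down the PAP left after transfer, was called lower in all 4 comparisons, with differences of -0.19, -0.30, -0.33 and -0.34 for fasting, Bcl6LKO, PparaKO and DKO. The fasting call was lost without any one of 6 libraries (all but fed WT 1 and 4, adjusted p from 0.0564 to 0.0943). Fasting gave 1 higher and 2 lower in this list, and PparaKO none higher and 2 lower. Of 3 tested sulfate transporters, none was higher and 1 lower in Bcl6LKO livers, 2 were higher and 1 lower in DKO livers (median 0.29), and none was called with fasting or in PparaKO livers. The lower one was Slc26a1, the sulfate carrier of the hepatocyte membrane, which differed by -0.41 in Bcl6LKO (adjusted p = 0.0114) and by -0.79 in DKO livers (adjusted p = 0.000462). The higher ones in DKO livers were Slc26a2 by 0.31 (adjusted p = 0.0217) and Slc26a11 by 0.29 (adjusted p = 0.0301). Both calls were lost with equal totals and without fasted WT replicate 1. That of Slc26a11 was also lost with quantile normalization (adjusted p = 0.0869) and the replicate block (adjusted p = 0.0609). It was lost without any single library except DKO replicate 1 (adjusted p from 0.0507 to 0.0756).

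Genes that act in the opposite direction or on other substrates were counted too. Many genes were called both ways in every comparison, so calls in both directions are not read as a trait of these lists. Of the sulfatases, 12 were tested in Bcl6LKO and 11 in DKO livers, with 1 higher and 2 lower in the first and 3 higher and 3 lower in the second. Arsa, the lysosomal arylsulfatase A, differed by -1.67 in Bcl6LKO (SE 0.12, adjusted p = 2.37e-06) and by -1.91 in DKO livers (SE 0.09, adjusted p = 1.12e-07). With fasting, 3 sulfatases were higher and 1 lower, and in PparaKO livers 3 were higher and 3 lower. Of the carbohydrate sulfotransferases, which modify glycans and glycolipids in the Golgi, 2 were higher and 2 lower of 13 with fasting, 2 and 1 of 12 in both Bcl6LKO and PparaKO livers, and 2 and 2 of 12 in DKO livers. Gal3st1, which makes sulfatide, was 0.42 higher with fasting and differed by -0.70 in PparaKO and -1.19 in DKO livers.

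Receptors known to act on sulfotransferase genes were counted as a list of 9, of which 8 were tested. With fasting 5 were higher and none lower (median 0.23), among them Nr1i3, the gene for CAR, by 1.50 (SE 0.12, adjusted p = 5.07e-05). In Bcl6LKO livers 2 were higher and 3 lower (median 0.01), and Esr1, the estrogen receptor gene, was higher by 1.42 (SE 0.12, adjusted p = 4.70e-06) while Nr1h4, the gene for FXR, differed by -0.79 (SE 0.08, adjusted p = 2.36e-05). In PparaKO livers 1 was higher and 3 lower (median 0.00), and in DKO livers 1 higher and 5 lower (median -0.51), with Nr1i3 at -1.23 (SE 0.15, adjusted p = 0.000105) and Nr1h4 at -1.18 (SE 0.07, adjusted p = 8.95e-07). The part of these receptors in the levels of the sulfotransferases was not tested.

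For the 4 genes tested in all tables, the genes with the closest set of 4 differences were found among 11665 genes, by the straight-line distance over the 4 comparisons, which share WT libraries. For Sult1a1 these were Acnat2 (distance 0.49), Cyp2a5 (0.53) and Lhpp (0.55), and for Sult1b1 Dag1 (0.05), Dhrs7 (0.12) and Sqrdl (0.12). For Sult1d1 they were Gys2 (0.13), Slc16a10 (0.18) and Hykk (0.19), and for Sult5a1 Dnaja4 (0.22), Spcs2 (0.23) and Rpn1 (0.25). Sult1a1 had the most distant neighbours of the 4.

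Markers of other cells moved with some groups. Of 5 endothelial markers, 4 were higher in Bcl6LKO livers, with a summed level of 12.16 to 12.33 in fed WT and 12.43 to 12.66 in Bcl6LKO libraries, and 3 were higher in DKO livers, with 12.10 to 12.32 in fasted WT and 12.34 to 12.45 in DKO libraries. Of 4 erythroid markers, 3 were higher and 1 lower with fasting, with 11.92 to 12.39 in fed and 12.89 to 13.21 in fasted libraries, and all 4 were lower in DKO livers, with 12.88 to 13.22 in fasted WT and 11.97 to 12.45 in DKO libraries. Of 5 stellate cell markers, 3 were lower with fasting, with 12.26 to 12.69 in fed and 12.22 to 12.47 in fasted libraries, and the other comparisons gave 1 call each. Of 4 gut markers, of which Cdx2 was listed at 0 throughout, 2 were tested. Both were higher with fasting, with a summed level of 9.30 to 9.65 in fed and 10.09 to 10.24 in fasted libraries, and both were lower in PparaKO livers, with 10.11 to 10.25 in fasted WT and 9.47 to 9.75 in PparaKO libraries. Both were lower in DKO livers as well, with 10.04 to 10.20 in fasted WT and 9.01 to 9.31 in DKO libraries, and 1 was lower in Bcl6LKO livers. Of 4 pancreas markers 1 was tested and was lower with fasting, with a summed level of 7.02 to 7.29 in fed and 6.30 to 6.48 in fasted libraries, and in Bcl6LKO livers, with 7.06 to 7.37 in fed WT and 6.15 to 6.42 in Bcl6LKO libraries. Both tested neutrophil markers of 3 were higher in DKO livers, with 5.13 to 5.39 in fasted WT and 5.62 to 6.68 in DKO libraries. The Kupffer cell, cholangiocyte and lymphocyte lists gave at most 1 call in a comparison, and none of the 3 kidney markers was tested. The part of these markers in the levels of the sulfotransferases was not tested. Of 5 hepatocyte markers, 1 was higher and 3 lower in Bcl6LKO livers and 1 higher and 2 lower in DKO livers.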

How the data were processed

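Libraries of ribosome-depleted total RNA from 20 liver samples in 5 groups were used, with groups from the labels. The authors aligned 75-base reads with STAR to mm10, kept uniquely mapped reads, counted them over exons with HOMER and made regularised log2 values with DESeq2 for each pair of groups. The deposited log2 values were used as they were, so no pseudocount was needed. The authors' own log2 fold changes and adjusted p-values are in the same tables and were not used. Depth per library is unknown, and no interval for counting error can be given.

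The test was that of limma 3.58.1, run in R 4.3.3 (two-sided, prior spread following the mean) and tested on simulated data beforehand. It covered 11910 genes for fasting, 12115 for Bcl6LKO, 11932 for PparaKO and 12004 for DKO, with p-values adjusted by Benjamini and Hochberg. The 8 genes and all lists were chosen with earlier results of these data known. All 8 are described, and of each list up to 4 genes that passed, by size of difference. The labels name no pairing of fed and fasted WT libraries. Their deviations from the group means correlated within each replicate number (r = 0.257, 0.133, 0.207 and 0.150). Each fed library correlated most with the fasted library of its own number. The main fit took the libraries as unpaired, and whether they were paired was not tested. Alternatives were equal totals, median centring, quantile normalization, no minimum mean, a minimum mean of 6, one prior spread, a replicate block and leaving out each library. Sequences came from RefSeq (GRCm38.p6) and GENCODE vM21.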

Additional observations from a re-analysis of the deposited data

Results flagged for a closer look

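Over 44 groups of 4 libraries, 1 held a library far from the other 3 by Dixon's criterion. This was Sult1d1 in fed Bcl6LKO replicate 1, at a log2 level of 9.87, beside 9.58 to 9.62 in the other Bcl6LKO libraries. Chance alone gives such a library in about 1 group in 20.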

How the results depend on the processing

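Sult1a1 was called higher in all but the PparaKO comparison under every alternative run. Sult2a1, Sult2a2 and Sult3a1 were called higher in Bcl6LKO and DKO livers under every alternative too. They passed the minimum only through the knockout libraries and had to differ, so this is no support for their calls. Over the tested genes and alternatives, 103 values kept their direction and side of the threshold in the Bcl6LKO comparison, and 2 gained a call. In the DKO comparison 93 kept them and 12 lost a call. With fasting 56 kept them and 4 gained a call. In the PparaKO comparison 51 kept them, 6 gained a call and 3 turned direction. The Bcl6LKO and DKO values include those of the 3 genes that had to differ. With equal totals, the count of the 8 genes called lower was 1 for fasting and 2 for Bcl6LKO, in each case through Sult5a1. With quantile normalization 1 was called higher in PparaKO (Sult1a1) and 0 lower in DKO livers. Without the minimum mean 1 was called higher in PparaKO livers (Sult1e1) and 6 in DKO livers, Sult1e1 among them. Leaving out each library gave 0 to 1 lower for fasting and 1 to 2 lower for Bcl6LKO. It gave 0 to 1 higher and 0 to 1 lower for PparaKO, and 4 to 5 higher and 0 to 1 lower for DKO. Directions that turned were Chst12 in Bcl6LKO livers (-0.039 with equal totals), Sult1d1 in PparaKO livers (-0.0090 with median centring, -0.16 to 0.074 without single libraries), Bcl6 in PparaKO livers (-0.22 to 0.48 without single libraries) and Bcl6 in DKO livers (-0.78 to 0.030 without single libraries). The causes were not tested.

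With the replicate block, 1 of the 8 genes was called lower with fasting (Sult5a1). In all comparisons the labels give samples only a shared number. Outside fasting, deviations within a number had r from -0.133 to 0.099. There the replicate block moved 1 call among the 8 genes, Sult5a1 in DKO livers (adjusted p = 0.0564).

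Depth is unknown, so differences among genes at low levels were limited by the pull of the deposited scale towards the mean of each gene.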
